A study of Arabidopsis thaliana with 6 samples.

Results

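The genes described here make, decorate or cut the polymers of the plant cell wall, and they were followed in roots of Arabidopsis thaliana seedlings given excess boron. They were chosen by name: a gene was a member if its symbol or synonym was TBL, GAUT, GATL, CSLA to CSLG, PME, PMEI, GAE, RGXT, FLA, AGP, BGAL, IRX or GH9A to GH9C followed by a number. Of 13355 genes measured by a named probe set, 53 were members, 4 of them through a synonym (PME39, PME41, TBL40 and IRX10). They comprised 23 TBL, 15 GH9, 8 CSL, 3 PME, 2 IRX, 1 GAUT and 1 BGAL gene. No GATL, PMEI, GAE, RGXT, FLA or AGP gene had a probe set named here. The set is therefore mostly one of hemicellulose, acetylation and glucanase genes, and only 4 of the 53 belong to pectin families.

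Boron is held in the wall by pectin: borate joins pairs of rhamnogalacturonan II chains, a complex pectic domain. Pectin is made in the Golgi by galacturonosyltransferases and altered in the wall by pectin methylesterases, which strip methyl groups from homogalacturonan. Hemicelluloses such as xyloglucan, mannan and xylan are made by glycan synthases of the CSL and IRX groups, and TRICHOME BIREFRINGENCE-LIKE (TBL) proteins add acetyl groups to several of these polymers. GH9 enzymes are endoglucanases, which cut glucan chains.

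Roots were compared in 2 groups, each of 3 Affymetrix ATH1 arrays. The boric acid group came from seedlings transferred at an age of 5 days to plates of medium with 5 mM boric acid, and the control group from seedlings of that age moved to medium without the addition. Both were sampled at 12 h, and each array is named by its group and the replicate number in its label. The labels give tissue, age and treatment of both groups and name no ecotype, and each array holds RNA of whole roots, in which fewer cells of a type and less RNA per cell cannot be told apart. The question was which transcripts differ early under toxic boron.

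Values are log2 expression per probe set as deposited by the authors. Control probe sets that match no plant transcript (TrpnX) reached at most 0.217, and values near this are called background. Changes are log2 differences, boric acid minus control, each with its standard error (SE) from a limma fit, and group values are means with the standard deviation (SD). "Rose" and "fell" are used only below an adjusted p of 0.05 (limma, Benjamini-Hochberg over all probe sets tested), in the fit without or, where said, with the replicate number as a block. Levels of different genes are not set against each other, since probe sets differ in brightness.

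Arrays numbered 1 stood apart in RNA quality: the 3′ minus 5′ actin signal was 2.60 to 2.96 log2 units on these and 1.23 to 1.71 on the others. Its group means were 1.98 ± 0.87 (SD, n = 3) in boric acid and 1.83 ± 0.70 in control (exact permutation test, two-sided p = 0.7, where 0.1 is the lowest this design allows). Within each number it was higher in boric acid, by 0.36, 0.04 and 0.05 (two-sided exact permutation test within pairs, p = 0.25, the lowest 3 pairs allow). The root marker PYK10, a beta-glucosidase of root ER bodies, lay between 9.96 and 10.4 on all arrays. Of 20 root markers written down, 4 were measured, with 0 past the threshold in limma and 1, EXPA18, raised with the block. Their median change was 0.34, and EXPA18, UPB1 and EXPA7 had changes of 0.67 ± 0.22, 0.72 ± 0.38 and 0.02 ± 0.39. Of 20 green tissue markers 4 were measured, 0 past the threshold in either fit, with a median change of -0.42 and summed log2 levels of 11.4 to 14.2 in boric acid and 13.1 to 15.8 in control. Their part in the results was not tested, and 0 of 12 seed coat markers had a named probe set.

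After 12 h in boric acid the pectin methylesterase gene PME41 rose 2.36-fold and the xyloglucan glucan synthase gene CSLC5 rose 1.65-fold, and the other 51 members did not pass the threshold. No member fell in limma without the block. There the unadjusted p was under 0.05 for 6 lower and 6 higher members of the 53, against 6.81% and 8.12% of all genes. With the replicate number as a block, 2 members rose and 3 fell, the falls being those of the acetyltransferase-family genes TBL36 and TBL39 and the endoglucanase gene GH9B13. Among all genes, 1.62% rose and 1.09% fell without the block, and 4.63% rose and 3.2% fell with it. The 2 called members are 3.77% of the 53, against 2.71% of all genes, and with the block the 5 are 9.43%, against 7.84%, so the members as a whole were called about as often as other genes. Their median change was 0.00, against -0.02 over all genes.

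**Figure D1:**
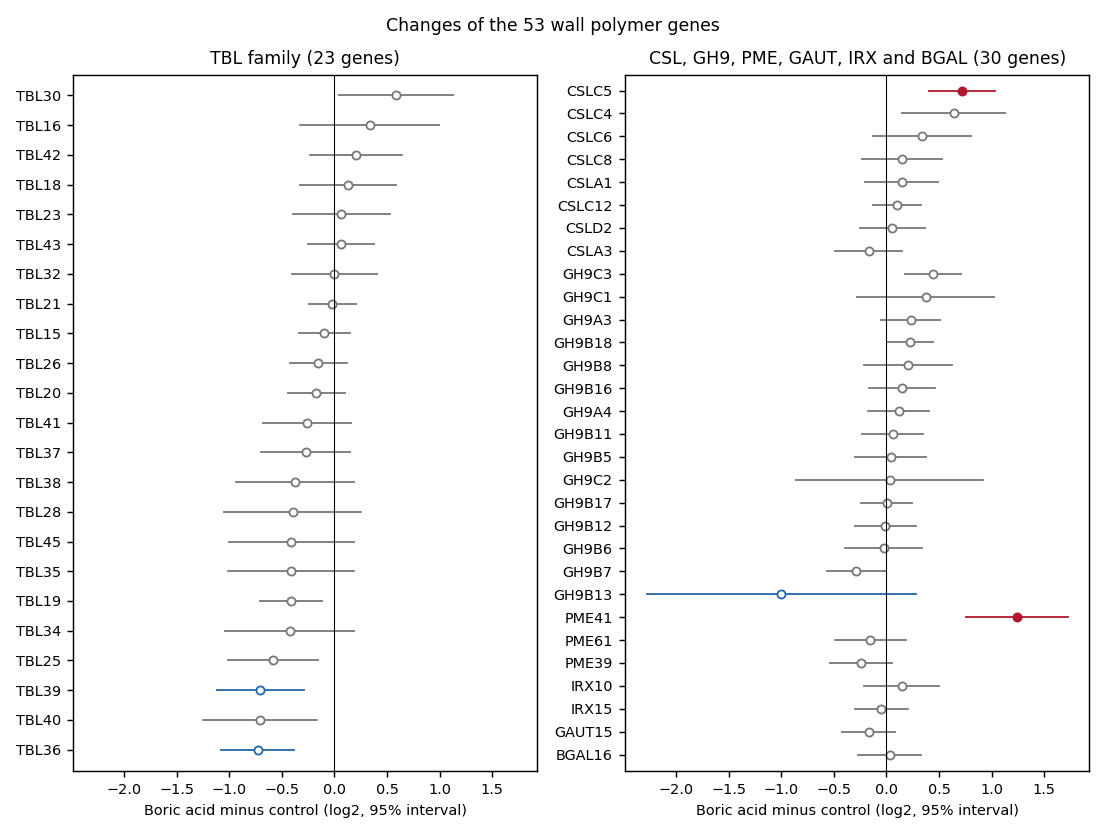
Change of each member, as a log2 difference between boric acid and control, with its 95% interval from the limma fit without the block. Filled red points rose in that fit (PME41 and CSLC5), open blue points fell only with the replicate block (TBL36, TBL39 and GH9B13), and open grey points passed in neither; 16 of the 23 TBL genes lie below 0 and all 5 CSLC genes above it.

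Among the pectin genes, PME41 carried the largest rise of any member. Pectin methylesterases remove methyl groups from homogalacturonan, and PME41 (AT4G02330) has been linked to chilling responses. It read 1.76, 1.86 and 1.76 on boric acid 1 to 3 and 1.02, 0.30 and 0.35 on control 1 to 3. The groups did not overlap, the boric acid arrays lay close together, and 2 control arrays were near background. Its change was 1.24 ± 0.20 (SE, n = 3 per group, 95% interval 0.75 to 1.73), with an adjusted p of 0.0321 in limma and 0.0167 with the block. Between arrays of the same number it was higher by 0.74, 1.56 and 1.41. The call was kept in only 1 of the 6 fits without an array, that without control 1 (adjusted p = 0.00519), at changes of 1.11 to 1.47 over the 6.

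The other pectin members stayed near background or moved little. PME39 (AT4G02300) read 0.28, 0.01 and 0.28 in boric acid and 0.31, 0.52 and 0.46 in control, a change of -0.24 ± 0.12 (SE, adjusted p = 0.415). All its boric acid arrays lay below all control arrays, but at signals near background. PME61 (AT3G59010) exceeded the highest background value on 3 of 6 arrays and had a change of -0.15 ± 0.14. GAUT15 (AT3G58790), of the galacturonosyltransferase family, read 0.72, 0.58 and 0.61 in boric acid and 0.86, 0.88 and 0.69 in control. Its groups overlapped, and the change was -0.17 ± 0.10 (95% interval -0.42 to 0.08, adjusted p = 0.516).

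All 5 CSLC genes had a change above 0, as had 46.4% of all genes, with a median of 0.34 over the 5. In Arabidopsis these 5 (CSLC4, CSLC5, CSLC6, CSLC8 and CSLC12) encode the synthases of the xyloglucan backbone. Only CSLC5 rose. CSLC5 (AT4G31590) read 3.36, 3.47 and 3.35 in boric acid and 2.59, 2.52 and 2.91 in control, so every boric acid array lay above every control array. Its change was 0.72 ± 0.13 (SE, 95% interval 0.40 to 1.03), with an adjusted p of 0.0431 in limma and 0.0324 with the block. In the fits without an array it passed only without control 3 (adjusted p = 0.0441), at changes of 0.64 to 0.84, and with an intensity trend in the variance it did not pass (adjusted p = 0.107).

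CSLC4 (AT3G28180) read 3.39, 3.13 and 3.10 in boric acid and 2.14, 2.80 and 2.77 in control. These groups did not overlap either, but control 1 lay well under the other control arrays, and the change of 0.64 ± 0.20 (SE) had an adjusted p of 0.178, and 0.132 with the block. Between same-numbered arrays CSLC4 was higher by 1.25, 0.33 and 0.33. CSLC6 (AT3G07330) read 2.26, 2.40 and 2.90 in boric acid and 2.04, 2.12 and 2.38 in control, higher within each number while the groups overlapped (0.34 ± 0.19, adjusted p = 0.477). CSLC8 and CSLC12 had low signal, with changes of 0.15 ± 0.16 and 0.10 ± 0.09. No overlap with the boric acid arrays higher was found for 3 of the 5 (CSLC4, CSLC5 and CSLC12), against 10.1% of all genes.

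**Figure D2:**
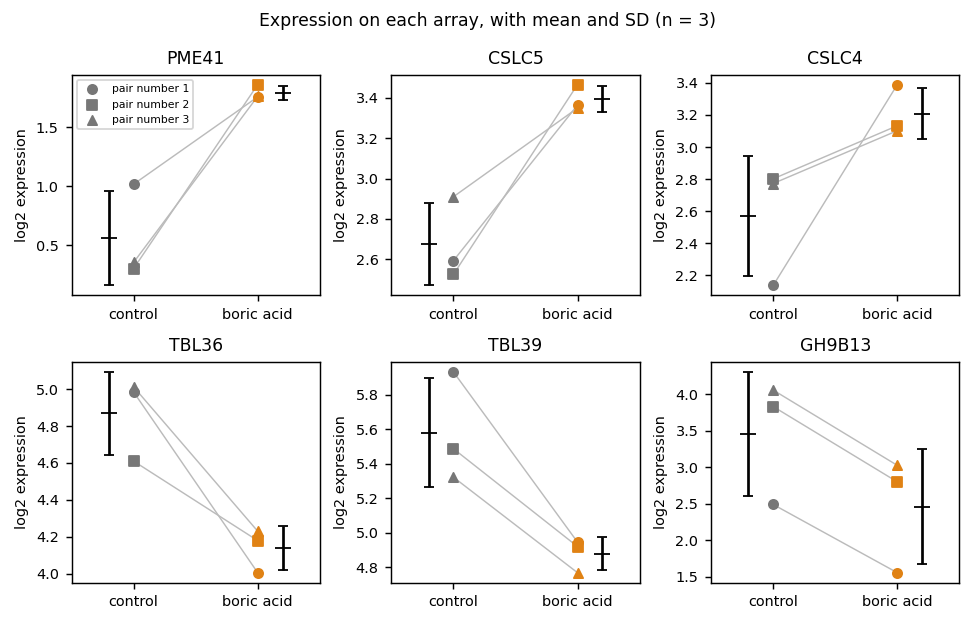
Log2 expression on each array for the members that rose or fell with or without the block, and for CSLC4. Grey symbols are control and orange symbols boric acid arrays, symbol shape and connecting line give the replicate number, and bars are the mean ± SD (n = 3). Every line goes the same way within a gene, and both GH9B13 symbols numbered 1 lie far under the others of their group.

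Of the remaining CSL genes, CSLD2 and CSLA1 had changes above 0 and CSLA3 one under it. CSLD2 (AT5G16910), needed for the growth of root hairs, read 4.87, 4.75 and 5.02 in boric acid and 4.64, 4.90 and 4.93 in control, with overlapping groups and a change of 0.05 ± 0.13 (SE, 95% interval -0.25 to 0.36, adjusted p = 0.903). CSLA1 and CSLA3, of the subfamily that makes mannan, had changes of 0.15 ± 0.14 and -0.17 ± 0.13, neither past the threshold.

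The TBL genes lay mostly below control. Of 23 members, 16 had a change under 0, 6 a change above it, and TBL32 one of 0.00. The family's median change was -0.26, against -0.02 over all genes, where 53.6% of changes were under 0. None of the 23 passed without the block in limma, and 5 were lower and 1 higher at an unadjusted p under 0.05, against 6.81% lower and 8.12% higher among all genes. With the block TBL36 and TBL39 fell (8.70%, against 3.2% of all genes) and none rose, against 4.63% of all genes. Groups did not overlap for 5 of the 23, all lower in boric acid (TBL19, TBL25, TBL36, TBL39 and TBL40), which is 21.7%, against 9.88% of all genes. Within same-numbered pairs the median difference of the family was -0.22, -0.27 and -0.21, and 8 genes were lower in all 3 pairs (34.8%, against 21.5% of all genes). Of the 20 TBL genes above the highest background value on all arrays, 14 had a change under 0, with a median of -0.32. Among all genes above it on all arrays, 4539 of 9025 had a change under 0, with a median of -0.00218. The 20 include genes of low signal, such as TBL26 with a mean of 0.42.

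TBL36 (AT3G54260) read 4.01, 4.18 and 4.23 in boric acid and 4.98, 4.61 and 5.01 in control. The groups were fully apart, and the change of -0.73 ± 0.14 (SE, 95% interval -1.08 to -0.38) had an adjusted p of 0.0528, just above the threshold, and of 0.0339 with the block. It also passed when arrays were shifted to equal medians (adjusted p = 0.0487) or quantile normalized (adjusted p = 0.0422). TBL39 (AT2G42570) read 4.94, 4.92 and 4.77 in boric acid and 5.93, 5.49 and 5.32 in control, again fully apart. It fell with the block, by 0.70 ± 0.13 (SE, adjusted p = 0.0328), and had an adjusted p of 0.0952 without it.

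TBL40, TBL25 and TBL19 were below control on every array without passing in either fit. TBL40 (AT2G31110) read 1.08, 1.46 and 1.83 in boric acid and 2.40, 1.88 and 2.21 in control, a change of -0.71 ± 0.23 (SE, adjusted p = 0.177). A second probe set of the gene went the same way, at -0.32 ± 0.11. TBL25 (AT1G01430), reported to acetylate mannan, read 2.69, 2.65 and 3.11 against 3.13, 3.54 and 3.53, a difference of -0.58 ± 0.18 (adjusted p = 0.161; block 0.0591). The gap between its groups was narrow, since boric acid 3 lay just under control 1. TBL19 (AT5G15900), at low signal, read 0.34, 0.48 and 0.38 against 0.92, 0.92 and 0.61 (-0.41 ± 0.12, adjusted p = 0.153).

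The TBL genes linked to a given polymer did not move as a unit. Of the 5 linked to xylan acetylation, TBL28, TBL34 and TBL35 had changes of -0.42 to -0.40, TBL32 one of 0.00 and TBL30 one of 0.58 ± 0.23 (SE, adjusted p = 0.261; block 0.0510). TBL30 (AT2G40160) read 3.80, 3.99 and 3.34 in boric acid and 3.43, 3.15 and 2.80 in control, higher within each number but overlapping between groups. It is the direct neighbour of TBL28 on chromosome 2, which read 1.55, 1.24 and 0.68 against 1.93, 1.51 and 1.22, lower within each number. Of the 3 linked to mannan acetylation, TBL25 lay below control, TBL26 had a change of -0.15 ± 0.11 and TBL23 one of 0.06 ± 0.19. The TBL32 probe set carries a suffix that marks probes shared by several transcripts, so its value may mix genes.

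**Figure D3:**
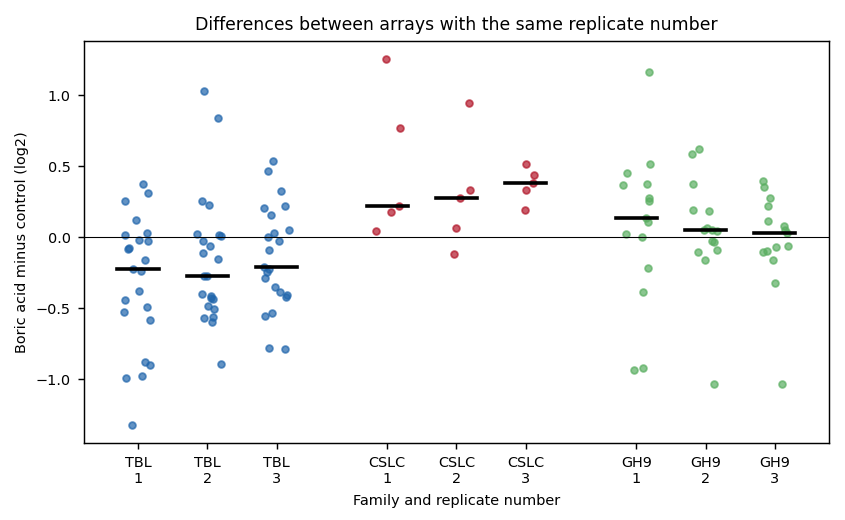
Differences between the boric acid and the control array of the same replicate number, log2 scale, for each TBL, CSLC and GH9 gene (points) with the family median (black bars). The TBL medians are -0.22, -0.27 and -0.21 and the CSLC medians 0.22, 0.28 and 0.38, while those of GH9 lie at 0.13, 0.05 and 0.03.

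Among the 15 endoglucanase genes of the GH9 family, GH9B13 had the largest change of any member below 0. GH9B13 (AT4G02290) read 1.56, 2.80 and 3.03 in boric acid and 2.49, 3.83 and 4.06 in control. The groups overlapped, because both arrays numbered 1, which also had the highest actin 3′ minus 5′ signal, lay more than 1 log2 unit under the others of their group. Within each number, however, the gene was lower by nearly the same amount, with differences of -0.93, -1.03 and -1.03. Without the block the change of -0.999 ± 0.533 (SE) did not pass (adjusted p = 0.438), and with the block GH9B13 fell, by 0.999 ± 0.105 (adjusted p = 0.00823). With the arrays numbered 2 and 3 alone, 2 per group, its change was -1.03 (limma adjusted p = 0.0197 without the block). That setting was chosen after seeing the data. In the 6 fits without 1 array GH9B13 did not pass (limma adjusted p = 0.126 to 0.706).

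No other GH9 gene passed in either fit. In the family 10 genes had a change above 0, 4 one under it and GH9B17 one of 0.00, with a median of 0.06. GH9B7 (AT1G75680) read 4.72, 5.04 and 4.84 in boric acid and 5.10, 5.20 and 5.16 in control, below control on every array by a small amount (-0.29 ± 0.12, SE, adjusted p = 0.291). GH9C3 (AT4G11050), of the subgroup whose enzymes carry a carbohydrate-binding module, read 0.85, 1.07 and 0.78 against 0.47, 0.49 and 0.43. Its groups did not overlap, and the change of 0.44 ± 0.11 had an adjusted p of 0.105, and of 0.0711 with the block. The others of that subgroup, GH9C1 and GH9C2, had changes of 0.37 ± 0.27 and 0.03 ± 0.37 with overlapping groups. GH9B18 (AT4G39010) read 0.89, 0.84 and 0.80 against 0.63, 0.66 and 0.58, higher on every boric acid array at low signal (0.22 ± 0.09, adjusted p = 0.296). GH9A3, a relative of the membrane-bound endoglucanase KORRIGAN, had a change of 0.23 ± 0.12 (adjusted p = 0.404). The other 8 had changes between -0.03 and 0.20, and 4 of the family were at or under the highest background value on at least 1 array.

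The xylan and galactan members differed by less than their spread. IRX10 (AT1G27440), a xylan synthase subunit, read 1.38, 1.86 and 1.74 in boric acid and 1.50, 1.44 and 1.62 in control, with overlapping groups (0.14 ± 0.15, SE, 95% interval -0.22 to 0.50, adjusted p = 0.732). IRX15, which affects xylan chain length, had a change of -0.05 ± 0.10. BGAL16 (AT1G77410), of the beta-galactosidase family, read 0.34, 0.18 and 0.20 against 0.29, 0.34 and 0.01, at background in both groups (0.03 ± 0.13, adjusted p = 0.952).

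**Figure D4:**
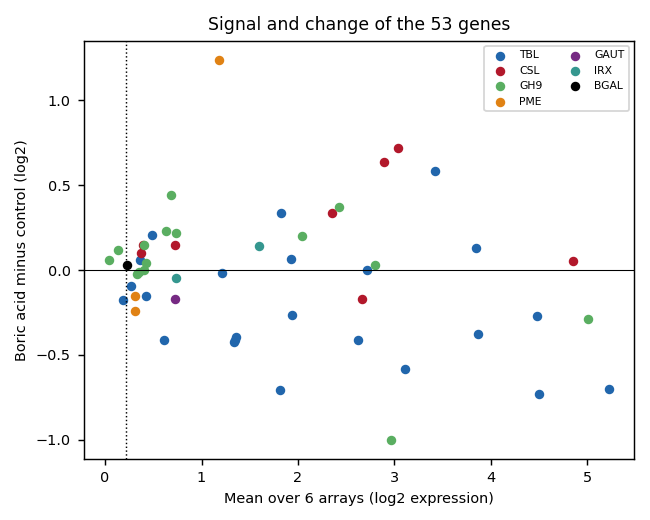
Change of each member (log2, boric acid minus control) against its mean over the 6 arrays (log2 expression), coloured by family, with the highest TrpnX background value of 0.217 as a dotted line. Of the 53 members 50 have a mean above it and 42 exceed it on all 6 arrays; changes beyond 0.5 in size occur only to the right of the line.

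Some members are neighbours in the genome, and some of these differed in direction while others did not. On chromosome 4, GH9B13 and PME39 are adjacent and PME41 follows with 2 protein-coding genes between, with changes of -0.999, -0.24 and 1.24. PME41 passed in both fits and GH9B13 only with the block, while PME39 lay near background. TBL28 and TBL30, adjacent on chromosome 2, had changes of -0.40 and 0.58. GH9B11 and GH9B12, adjacent on the same chromosome, had changes of 0.06 and -0.01. Their means over the 6 arrays were 0.04 and 0.35, at or near background, so the signs carry little weight. TBL21 and TBL19, adjacent on chromosome 5, had changes of -0.02 and -0.41, and the adjacent GH9B16, GH9B17 and GH9B18 on chromosome 4 had changes of 0.15, 0.00 and 0.22.

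Of 286 symbols written down for other wall genes, 16 genes were measured by name, of which 2 fell, 0 rose and 14 did not pass in limma. With the block 3 fell and 2 rose. The called genes are 12.5% of the 16, against 2.71% of all genes, and with the block 31.2%, against 7.84%. These shares rest on 2 and 5 genes, from lists chosen with earlier results of these data known. The falls without the block were of KDSA2 and PMEPCRF. KDSA2 (AT1G16340) encodes a synthase for the precursor of KDO, a sugar of rhamnogalacturonan II, the pectin domain that binds borate. It read 2.84, 2.43 and 2.89 in boric acid and 3.47 to 3.54 on the 3 control arrays, fully apart. KDSA2 fell by 0.78 ± 0.14 (SE), with an adjusted p of 0.0453 in limma and 0.0227 under the block. CKS, which activates KDO for use, had a change of 0.08 ± 0.10 (adjusted p = 0.765). GER2, GME and USP, of nucleotide sugar supply, had changes of -0.23 ± 0.25, -0.29 ± 0.15 and 0.01 ± 0.22.

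Of the other pectin enzymes, PMEPCRF (AT5G53370), a pectin methylesterase gene whose name falls outside the member rule, went the opposite way from PME41. It read 4.17, 4.25 and 4.21 in boric acid and 4.78, 5.33 and 5.04 in control and fell by 0.84 ± 0.15 (SE), with an adjusted p of 0.0429 in limma and 0.0191 under the block. SBT3.5 (AT1G32940), a subtilase known to process a pectin methylesterase, read 4.25, 4.32 and 4.37 against 3.05, 1.35 and 2.57. The control arrays spread widely but stayed below all boric acid arrays. Its change of 1.99 ± 0.41 had a limma adjusted p of 0.0589, with a rise under the block (adjusted p = 0.0222). It also passed with the intensity trend (adjusted p = 0.0328) and without dim probe sets (adjusted p = 0.0471). ADPG1, a polygalacturonase, was at background on all arrays.

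The calls of KDSA2 and PMEPCRF were both lost with an intensity trend in the variance (adjusted p = 0.0913 and 0.0641) and in most fits without an array. KDSA2 passed in 0 of the 6 fits without an array, at changes of -0.87 to -0.64, and PMEPCRF in 1, that without control 1, at -0.98 to -0.70. COB (AT5G60920), a protein that orients cellulose deposition in roots, read 5.22, 5.57 and 5.90 against 6.09, 6.29 and 6.26 and fell only with the block, by 0.65 (adjusted p = 0.132 without it and 0.0433 with it). The receptor kinase THE1 (AT5G54380), which senses wall damage, read 3.99, 4.03 and 3.86 against 3.63, 2.83 and 2.85. It rose with the block (limma adjusted p = 0.0443), at a change of 0.86 ± 0.23 over all arrays. Without control 1, the highest control array, it passed too (adjusted p = 0.00985). The other measured genes of wall sensing, the receptor kinase gene FER and the peptide genes RALFL22 and RALFL33, had changes of -0.11 ± 0.13, -0.23 ± 0.22 and -0.02 ± 0.24. In the hemicellulose list the xylanase gene XYN3 had the largest change, -0.13 ± 0.13, and the only glycoprotein gene measured, XEG113, an arabinosyltransferase of extensins, had one of -0.18 ± 0.23.

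**Figure D5:**
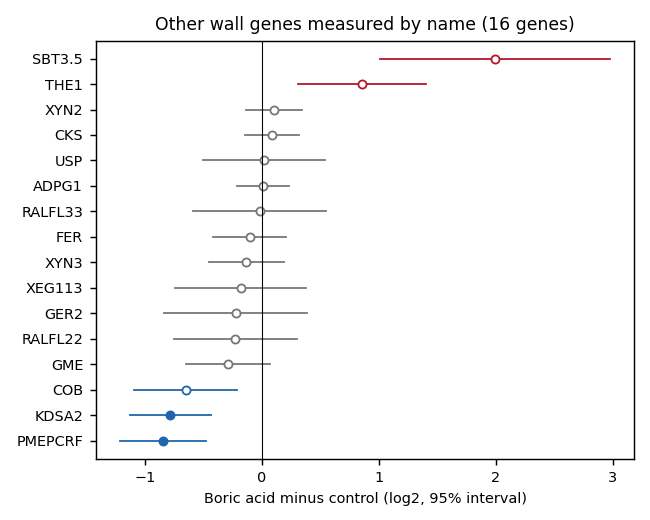
Change of the 16 other wall genes measured by name, with 95% intervals of the limma fit without the block. Filled points passed in that fit (KDSA2 and PMEPCRF, both lower), open coloured points passed only with the replicate block (SBT3.5 and THE1 higher, COB lower), and grey points passed in neither.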

How the data were processed

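Total RNA was labelled from the 3′ end and hybridized to 6 arrays, per the labels' protocols. The authors used RMA, per the submitters' processing notes, and deposited log2 values per probe set; version, background step and parameters are not given in the sources used here. Of 22810 probe sets, 64 controls were set aside and 22746 were fitted with limma 3.58.1 (R 4.3.3), with empirical Bayes moderation, two-sided p-values and Benjamini-Hochberg adjustment. Names came from the array's annotation through RefSeq (TAIR10.1): 13513 probe sets had 1 gene, 503 several and 8730 none here; PEX4, a peroxin sharing a listed symbol, was left out. The brightest probe set stood for a gene, and no filter on low values was used. On simulated data over 22746 probe sets, the fit recovered 46% of changes of 1 log2 unit and 87% of those of 2. The simulated noise was independent between arrays and had no lower limit, so these shares may not hold for the real arrays. Arrays have no read depth, and their number limits the precision. The labels call the arrays biological replicates without saying what a shared number stands for. Same-numbered arrays deviated together for numbers 1 and 3 (r = 0.608 and 0.618, against -0.619 to 0.284 for arrays of different numbers). For number 2 r was 0.231, under the 0.284 of boric acid 3 with control 2. The numbers were read as pairs on the data's evidence alone, which does not set number 2 apart. Members and lists were chosen with earlier results of these data known. Members named with values on every array are those past the threshold in either fit, those at an unadjusted p under 0.05 without overlap, and per family the largest change and the brightest probe set; TBL28, TBL30, CSLC6 and PME39 were added after their values were seen. The alternatives tried were the replicate block, 2 rescalings, a filter on dim probe sets, a variance trend and leaving out arrays.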

Additional observations from a re-analysis of the deposited data

How the results depend on the processing

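The 2 members called higher stayed at 2 with the replicate block, both rescalings and without dim probe sets, and were 1 with an intensity trend, 0 to 1 without any 1 array and 1 without both arrays numbered 1, a setting chosen after seeing the data. The 0 called lower became 1 with median centring, 1 with quantile normalization, 3 with the replicate block and 1 without the arrays numbered 1, and was 0 without any 1 array. The other wall genes past the threshold, KDSA2 and PMEPCRF, numbered 2; with the intensity trend 1 passed, SBT3.5, and both of these were lost. Without dim probe sets 3 passed, SBT3.5 being added, with the replicate block 5, and without any 1 array 0 to 3. The members' median change of 0.00 was -0.0159 with median centring, 0.00511 with quantile normalization, -0.0167 to -0.00609 without any 1 array and -0.0315 without the arrays numbered 1. BGAL16, at background, changed sign without boric acid 1 or control 3 (range -0.0725 to 0.0924 without any 1 array), and CSLD2 without boric acid 3 or control 1 (range -0.0363 to 0.120) and without the arrays numbered 1 (-0.0315); neither was called. The causes were not tested. All genes past the threshold numbered 362, and 1047 with the block, 36 to 573 without any 1 array. TBL genes below 0 numbered 15 to 18 over the alternatives, and all 5 CSLC changes stayed above 0 in each. That of CSLC8 was as low as 0.000215 without 1 array, and of the 5 only CSLC5 was called in any setting. The small number of arrays and signals near background limit what can be seen.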

Other observations

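Probe sets shared by members were left out of the counts. The one shared by GH9B14 and GH9B15 had a change of -0.02 ± 0.13 (SE, limma adjusted p = 0.972) and that shared by GH9B9 and GH9B10 one of 0.01 ± 0.10 (adjusted p = 0.984), both at background in both groups.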
